A study of Homo sapiens with 3 samples.

Results

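CD14, the coreceptors LY96 and CD180, 6 Toll-like receptors and the adaptor MYD88 were examined in THP-1 cells before and during LSD1 inhibition. The 10 members were chosen by their UniProt accessions, and all 10 have a row among the 213543 features of the count table. They are the coreceptors CD14 (P08571), LY96 (Q9Y6Y9) and CD180 (Q99467), the receptors TLR4 (O00206), TLR2 (O60603), TLR1 (Q15399), TLR6 (Q9Y2C9), TLR5 (O60602) and TLR8 (Q9NR97), and the adaptor MYD88 (Q99836). THP-1 is an established line of human leukemic monocytes with the MLL-AF9 fusion gene, and GSK-LSD1 is an inhibitor of the histone demethylase LSD1 used here to induce myeloid differentiation. RNA-seq of total RNA depleted of ribosomal RNA was performed on wildtype, untreated cells (0 h, for which no vehicle is given) and on cells after 8 h and 24 h with 0.2 µM GSK-LSD1. Each of the 3 time points is 1 library of 1 leukemic cell line. Every difference therefore compares libraries without a replicate check, and no p-value is given. An effect of treatment cannot be told apart from any other way in which the single libraries differ.

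Toll-like receptors are membrane proteins that bind microbial molecules through leucine-rich repeats and signal through a cytoplasmic TIR domain. TLR4 senses lipopolysaccharide together with MD-2, the product of LY96, after CD14 has passed the lipid on to this complex. TLR2 pairs with TLR1 or TLR6 to sense bacterial lipopeptides, TLR5 senses flagellin and TLR8 senses single-stranded RNA in endosomes. MYD88 links most of these receptors to IRAK kinases and NF-kB. CD180 is a TLR-like protein without a TIR domain that forms a complex with MD-1, the product of LY86. Blood monocytes are known for high surface CD14 and for expression of TLR2 and TLR4.

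The deposited counts summed to between 1310912 and 1475938 per library. A count of 0 was taken to allow up to 3 counts, equal to 1.95, 2.34 and 2.11 CPM (counts scaled to the library size, here by TMM) at 0 h, 8 h and 24 h. Molecular identifiers are not described for the libraries, so PCR copies may count as reads, and intervals and limits cover counting error alone. The files do not pair accessions with genes, so gene names of features outside the 10 members follow general knowledge of UniProt accessions and were not checked against a table. The monocytic identity was examined with 10 myeloid markers. Of their accession rows, 5 had at least 10 counts in a library (PTPRC, LYZ, ITGAM, SPI1 and MPO), CD68 had at most 2 counts, and CD33, CSF1R, FCER1G and TYROBP were listed at 0 in every library. A CD33 transcript with a retained intron, in a row of its own, held 67, 44 and 45 counts. The summed level of the accession rows was 941, 1168 and 1940 CPM at 0 h, 8 h and 24 h. Its rise from 0 h to 24 h lay mostly in LYZ (655, 747 and 1773 counts) and ITGAM (87, 120 and 339). For LYZ, 40.2% of the exon bases lie under another gene. PTPRC held more counts than ITGAM in every library. SPI1 had 69, 87 and 102 counts, PTPRC had 617 at 0 h and 521 at 24 h, and MPO had 17, 18 and 18. After TMM scaling, the log2 ratio at 24 h against 0 h was 1.55 for LYZ (exact counting interval 1.42 to 1.68). It was 2.08 (1.73 to 2.43) for ITGAM and 0.68 (0.22 to 1.14) for SPI1. PTPRC at -0.13 (-0.30 to 0.04) and MPO at 0.20 (-0.84 to 1.24) were within counting error. The markers thus did not all rise. Their part in the members' differences was not tested. Markers of T and NK cells, B cells, red cells, megakaryocytes and epithelium each summed to at most 3 counts per library. In bulk RNA, fewer cells expressing a gene and less of its RNA per cell cannot be told apart.

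The sequence that limits what can be read from TLR1 and TLR6 is shown first. These neighbouring genes on chromosome 4 encode close paralogs, and their canonical transcripts were 78.4% identical over 2316 aligned bases. The longest stretch that both transcripts share without a mismatch is 218 bases of coding sequence, on the reverse strand of GRCh38 at chr4:38797236-38797453 in TLR1 and at chr4:38827863-38828080 in TLR6. A read from this stretch carries no base that separates the genes, so the run is printed once, with no capitals.
TLR1 and TLR6: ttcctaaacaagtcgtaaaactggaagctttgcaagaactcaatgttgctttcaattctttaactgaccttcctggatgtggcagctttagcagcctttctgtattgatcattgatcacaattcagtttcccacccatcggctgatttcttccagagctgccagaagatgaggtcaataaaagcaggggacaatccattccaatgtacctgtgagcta
Of the 75-base windows of the canonical TLR1 transcript, 5.37% also occur in that of TLR6, and 2.25% of the TLR6 windows occur in TLR1. No 75-base window of either was shared with TLR10 or TLR2. TLR1 transcripts also run up to the start of TLR6, where TLR1 exons cover 0.9% of the exon bases of TLR6. How the authors' counting treated shared reads and strand is not given in the sources used here, so the counts of TLR1 and TLR6 are uncertain to this extent.

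Promoters are shown for the members whose levels the results below turn on and that have an entry in the RefSeq table (GRCh38.p14). Each runs from 250 bases before to 50 bases after the start in that table. In all, 8 of 10 members had such an entry. For CD14, TLR4 and TLR2 the RefSeq start lies inside the gene span of the GENCODE annotation given below. Their windows thus lie wholly (CD14) or mostly (TLR4 and TLR2) within that span. Capitals mark GAGGAA or its reverse complement TTCCTC, the core bound by PU.1, an ETS factor of the myeloid lineage. The windows are chr5:140633126-140633425 for CD14 and chr5:67196750-67197049 for CD180, both on the reverse strand, then chr4:38856768-38857067 for TLR6, also on the reverse strand, and chr9:117704153-117704452 for TLR4 and chr4:153684030-153684329 for TLR2, both on the forward strand.
CD14: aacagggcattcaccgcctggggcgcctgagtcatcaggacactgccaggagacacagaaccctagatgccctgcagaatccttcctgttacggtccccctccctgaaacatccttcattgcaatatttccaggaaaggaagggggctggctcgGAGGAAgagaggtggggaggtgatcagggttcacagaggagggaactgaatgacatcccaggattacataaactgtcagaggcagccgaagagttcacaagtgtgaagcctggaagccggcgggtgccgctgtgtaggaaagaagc
CD180: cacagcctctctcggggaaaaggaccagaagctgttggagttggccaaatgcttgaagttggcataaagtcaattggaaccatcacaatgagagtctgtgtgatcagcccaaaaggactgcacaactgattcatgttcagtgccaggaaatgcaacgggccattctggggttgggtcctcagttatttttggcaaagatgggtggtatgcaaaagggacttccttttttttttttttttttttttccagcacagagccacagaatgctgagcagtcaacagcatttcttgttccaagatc
TLR4: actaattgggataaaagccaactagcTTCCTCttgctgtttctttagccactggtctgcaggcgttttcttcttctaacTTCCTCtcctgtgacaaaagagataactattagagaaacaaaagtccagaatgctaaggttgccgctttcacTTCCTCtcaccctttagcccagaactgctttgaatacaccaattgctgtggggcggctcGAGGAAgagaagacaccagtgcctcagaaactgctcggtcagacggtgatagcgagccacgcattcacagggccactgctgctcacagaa
TLR2: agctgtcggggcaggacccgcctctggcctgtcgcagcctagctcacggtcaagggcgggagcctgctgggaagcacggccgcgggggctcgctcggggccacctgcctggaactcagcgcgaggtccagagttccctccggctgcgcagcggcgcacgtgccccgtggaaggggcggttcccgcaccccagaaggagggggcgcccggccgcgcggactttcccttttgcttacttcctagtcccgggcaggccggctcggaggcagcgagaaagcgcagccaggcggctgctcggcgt
TLR6: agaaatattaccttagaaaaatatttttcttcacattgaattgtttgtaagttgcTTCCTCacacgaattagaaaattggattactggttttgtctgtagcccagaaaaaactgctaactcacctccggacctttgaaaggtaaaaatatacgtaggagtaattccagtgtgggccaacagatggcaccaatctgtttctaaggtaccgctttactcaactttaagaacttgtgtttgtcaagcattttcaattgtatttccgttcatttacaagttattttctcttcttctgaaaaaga
The TLR4 window held the motif 4 times, at 224, 171, 99 and 40 bases before the RefSeq start, all inside the GENCODE gene span. The CD14 window held it 1 time, 96 bases before the RefSeq start and also inside the GENCODE gene span. The TLR6 window held it 1 time, 195 bases before the start. Of all 35116 promoters of this length, 27.9% held it on either strand. Among the 8 member promoters, CD14, TLR4, TLR6 and MYD88 held it, whereas the letters were not found in those of CD180, TLR2, TLR5 and TLR8. TTGCNNAA, a C/EBP core, was found in the promoters of CD180 and TLR8, against 10.5% of all promoters. An NF-kB core (GGG, any 2 bases, then TTTCC) was found in none of the 8 and in 1.91% of all, and GGGCGG, a GC box, in those of TLR4, TLR2, TLR5 and MYD88 and in 45% of all. All motifs were read on both strands. A match is a run of letters and not a shown binding site, and the absence of a match says only that these letters are not in this window.

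Within the lipopolysaccharide complex, LY96, the MD-2 subunit, rose at both times, whereas the receptor TLR4 did not leave counting error against 0 h. LY96 (GRCh38, chromosome 8, 73991392 to 74029079, forward strand) had only 2 counts in untreated cells but 20 and 29 after 8 h and 24 h, or 1.30, 15.6 and 20.4 CPM. It was thus near the counting limit before treatment and above it at both later times. The log2 ratio against 0 h was 3.58 at 8 h (exact Clopper-Pearson 95% counting interval 1.54 to 6.73) and 3.97 at 24 h (1.99 to 7.08). From 8 h to 24 h it was 0.39 (-0.48 to 1.29), so the later step was within counting error. LY96 reached 10 counts in the treated libraries alone, and the width of its intervals comes from the 2 counts at 0 h.

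TLR4 (chromosome 9, 117704175 to 117724735, forward strand) had 91, 68 and 106 counts, or 59.2, 53.1 and 74.6 CPM, at 0 h, 8 h and 24 h. Its 3 levels lay close together, with the lowest at 8 h. The log2 ratios against 0 h were -0.16 (-0.63 to 0.31) at 8 h and 0.33 (-0.08 to 0.75) at 24 h, both within counting error. Between 8 h and 24 h the log2 ratio was 0.49 (0.04 to 0.95), above 0 by the 95% interval but not by a 99% interval. Exons of another annotated gene cover 2.6% of the TLR4 exon bases.

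The count of LY96 per 100 counts of TLR4 was 2.20 in untreated cells (0.262 to 8.17). It reached 29.4 (16.9 to 49.0) by 8 h and 27.4 (17.5 to 41.6) by 24 h. This ratio is taken within each library, so library scaling does not enter it. It was 13.2-fold higher at 8 h than at 0 h (exact 95% counting interval 3.05 to 121) and 12.4-fold higher at 24 h (2.99 to 110). This pair was chosen after its values were seen, and its ratio rests on the same LY96 counts as the log2 ratios above.

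CD14 (chromosome 5, 140631728 to 140633700, reverse strand) is the surface protein that hands lipopolysaccharide to the TLR4 complex and the usual marker of classical monocytes. It was listed at 0 at 0 h and had 5 counts at 8 h and 6 at 24 h, or 3.90 and 4.22 CPM. These counts stayed under the 10 needed to enter the fold comparison. With the 0 h count set to the limit of 3, CD14 was 2.0-fold higher at 8 h and 2.16-fold higher at 24 h, leaving aside the counting error of the later counts. By the exact 95% counting interval, which needs no such limit, the fold started at 1.10 at 8 h and at 1.27 at 24 h. Both later libraries thus held more CD14 counts than the first, by a margin close to the smallest that this depth can show.

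CD180 (chromosome 5, 67179613 to 67196799, reverse strand), the TLR-like coreceptor of the MD-1 complex, had 17, 24 and 72 counts in the 3 libraries in order of time, or 11.1, 18.7 and 50.7 CPM. In contrast to LY96, most of its increase lay between the later libraries. At 8 h its log2 ratio to 0 h was 0.76 (-0.20 to 1.75) and within counting error. It was 2.20 at 24 h against 0 h (1.42 to 3.05), a 4.58-fold ratio (2.67 to 8.29), and 1.44 at 24 h against 8 h (0.75 to 2.17).

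LY86, which encodes the MD-1 partner of CD180 and is not itself a member, had 75, 136 and 243 counts. It rose at both times, with log2 ratios against 0 h of 1.12 (0.70 to 1.55) and 1.81 (1.43 to 2.20). The count of CD180 per 100 counts of LY86 was 22.7, 17.6 and 29.6 at 0 h, 8 h and 24 h. The change of this ratio was 0.779-fold (0.374 to 1.65) at 8 h and 1.31-fold (0.708 to 2.52) at 24 h against 0 h, so a change in their proportion was not detectable at this depth. Against TLR4, the count of CD180 was 18.7, 35.3 and 67.9 per 100, and this ratio was 3.62-fold higher at 24 h than at 0 h (1.94 to 7.05). Both pairs with CD180 were chosen after their values were seen.

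**Figure D1:**
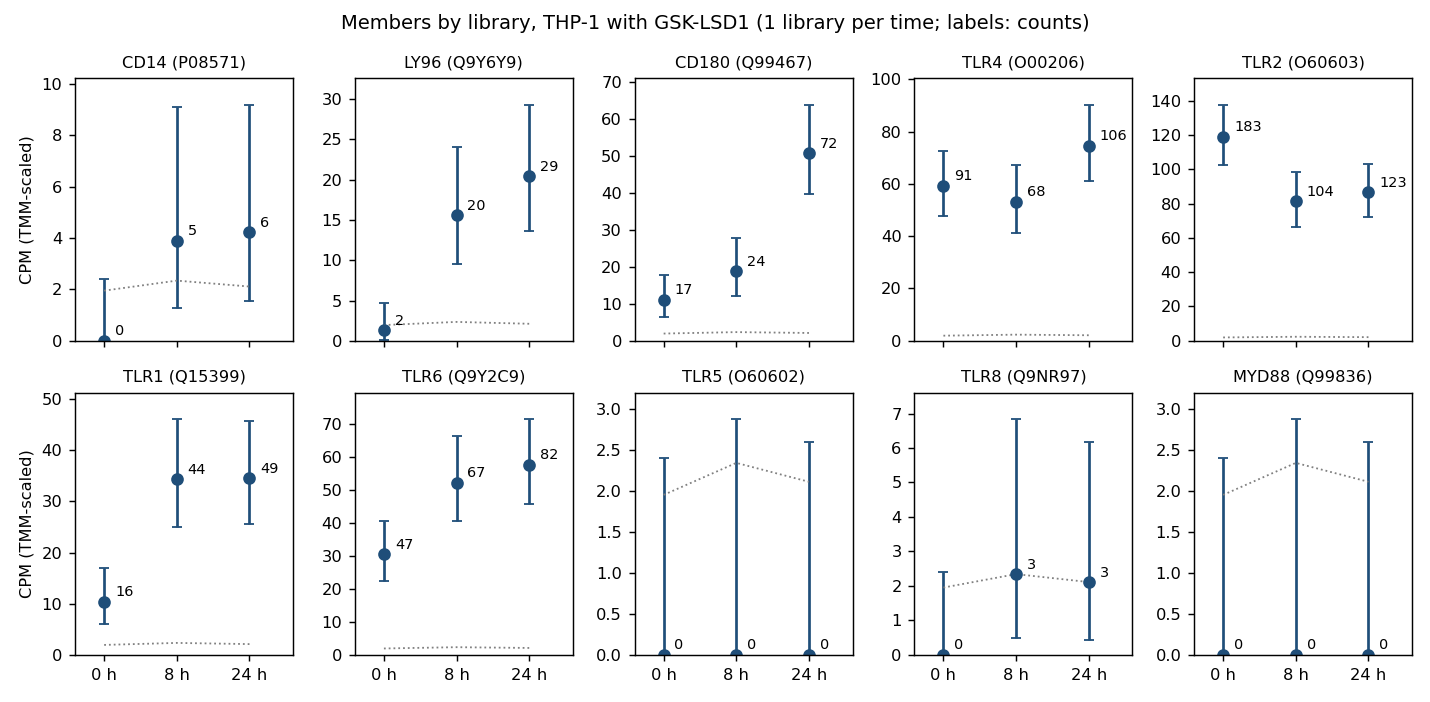
Level of each member in each library in CPM (TMM-scaled, vertical axis, own scale per gene) at 0 h, 8 h and 24 h, with exact 95% counting intervals as bars, the count beside each point and the level of 3 counts as a dotted line. LY96 went from 2 to 29 counts and CD180 from 17 to 72, TLR2 was highest at 0 h with 183 counts, and TLR5 and MYD88 had 0 counts in every library.

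Among the lipopeptide receptors, the shared subunit TLR2 was lower after treatment, whereas both of its partners were higher. TLR2 (chromosome 4, 153684070 to 153706260, forward strand) had 183 counts in untreated cells and 104 and 123 after 8 h and 24 h, or 119, 81.2 and 86.6 CPM. The untreated library stood above both treated ones, which lay close together. The log2 ratio against 0 h was -0.55 (-0.91 to -0.20) at 8 h and -0.46 (-0.80 to -0.12) at 24 h, beyond counting error but not past a log2 fold change of 1. Between 8 h and 24 h it was 0.09 (-0.30 to 0.48).

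TLR1 (chromosome 4, 38790677 to 38856817, reverse strand), which pairs with TLR2 on triacylated lipopeptides, had 16, 44 and 49 counts, or 10.4, 34.4 and 34.5 CPM. It rose by 8 h, and the treated libraries lay close together, with a log2 ratio of 0.01 (-0.61 to 0.63) between them. The log2 ratio against 0 h was 1.72 (0.87 to 2.65) at 8 h, a 3.30-fold ratio, and 1.73 (0.89 to 2.64) at 24 h, a 3.31-fold ratio.

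TLR6 (chromosome 4, 38822897 to 38856817, reverse strand), the partner of TLR2 on diacylated lipopeptides, had 47, 67 and 82 counts, or 30.6, 52.3 and 57.7 CPM. Both treated libraries were higher than the untreated one, by less than for TLR1. The log2 ratio was 0.77 (0.21 to 1.34) at 8 h and 0.92 (0.38 to 1.47) at 24 h against 0 h, and 0.14 (-0.34 to 0.63) from 8 h to 24 h. The intervals of TLR1 and TLR6 overlapped at both times, and the difference between them was not tested.

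Per 100 counts of TLR2, the count of TLR1 went from 8.74 in untreated cells to 42.3 after 8 h and 39.8 after 24 h, and that of TLR6 from 25.7 to 64.4 and 66.7. The TLR1 ratio was 4.82-fold higher at 8 h (2.52 to 9.62) and 4.54-fold higher at 24 h (2.41 to 8.96) than at 0 h. The TLR6 ratio was 2.50-fold (1.57 to 4.01) and 2.59-fold (1.66 to 4.07) higher. For TLR4, which does not pair with TLR2, the count per 100 of TLR2 was 49.7, 65.4 and 86.2, with changes of 1.31-fold (0.867 to 1.99) at 8 h and 1.73-fold (1.19 to 2.53) at 24 h. Both partners of TLR2 were thus higher per count of TLR2 in each treated library, beyond counting error, and these ratios do not depend on library scaling. These pairs were chosen after their values were seen.

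**Figure D2:**
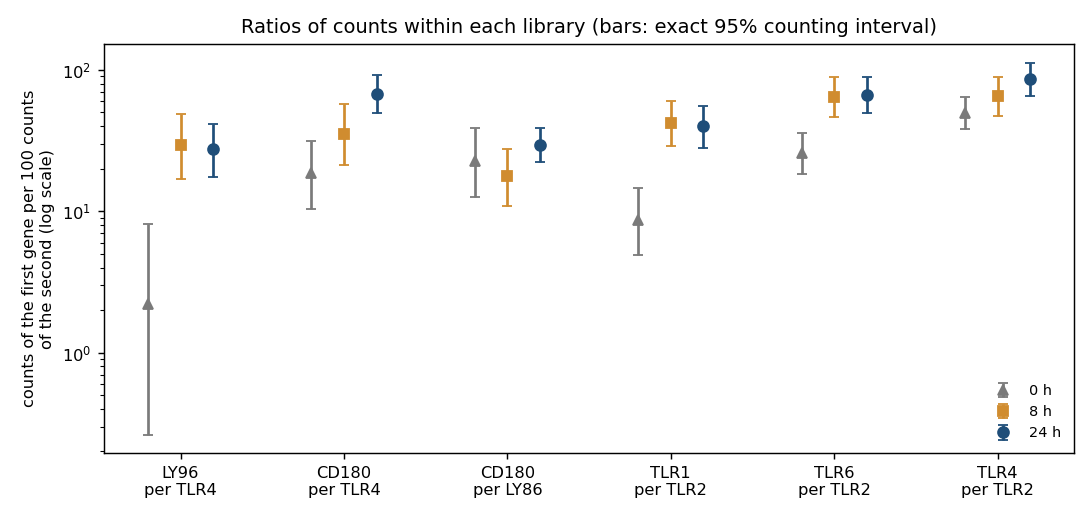
Counts of the first gene per 100 counts of the second within each library (vertical log axis) for pairs of receptor and coreceptor genes, with exact 95% counting intervals as bars, at 0 h (triangles), 8 h (squares) and 24 h (circles). LY96 per TLR4 and TLR1 per TLR2 were lowest at 0 h, at 2.20 and 8.74, with intervals that do not reach those of the later libraries, while the intervals of CD180 per LY86 overlap.

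The remaining receptors and the adaptor gave few or no counts. TLR8 (chromosome X, 12906620 to 12923169, forward strand) had 0, 3 and 3 counts, all at or under the limit, and no fold is given. TLR5 (chromosome 1, 223109404 to 223143248, reverse strand) and MYD88 (chromosome 3, 38138552 to 38143024, forward strand) were listed at 0 in every library. For TLR5 and MYD88 this allows a level of at most 1.95, 2.34 and 2.11 CPM at 0 h, 8 h and 24 h for the feature counted.

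A 0 in this table was not read as absence of the transcript. The accession rows of RELA and NFKBIA, which encode an NF-kB subunit and its inhibitor and are used by most cells, were also listed at 0 in all 3 libraries, as were those of the myeloid adaptors TYROBP and FCER1G. A RELA transcript with a retained intron held 9, 3 and 3 counts in a row of its own. Genes listed at 0 had a median of 4 distinct coding sequences in GENCODE 44 (27 genes of the members and pathway lists, range 1 to 19), and genes with at least 10 counts in a library had a median of 2 (28 genes, range 1 to 9). MYD88 has 7 distinct coding sequences, TLR5 has 3, and CD14, CD180 and TLR6 have 1 each. TLR2 with 2 and TLR4 with 3 were counted in every library. The reason for the zeros was not tested.

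Levels of different members were compared per kilobase of the canonical transcript, whose length runs from 559 bases for LY96 to 12677 for TLR4. The length of the counted feature is not in the table, so the order of members rests on these unchecked lengths. Before division by length, LY96 stayed below TLR2 at 8 h and 24 h (15.6 against 81.2 and 20.4 against 86.6 CPM). At 0 h, TLR2 was highest at 33.1 CPM per kb (28.5 to 38.3). TLR4 at 4.67 (3.76 to 5.74), TLR6 at 4.57 (3.36 to 6.07) and TLR1 at 3.65 (2.09 to 5.93) followed with overlapping intervals, and so did LY96 at 2.33 (0.282 to 8.41) and CD180 at 2.05 (1.20 to 3.29), although CD180 lay below TLR4 and TLR6. TLR2 thus stood apart from the other members that were counted in the untreated cells.

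At 8 h, LY96 at 27.9 CPM per kb (17.1 to 43.2) and TLR2 at 22.6 (18.5 to 27.4) overlapped at the top. TLR1 followed at 12.1 (8.76 to 16.2) and TLR6 at 7.81 (6.05 to 9.92), and these neighbours overlapped too. TLR4 at 4.19 (3.25 to 5.31), CD180 at 3.48 (2.23 to 5.18) and CD14 at 2.88 (0.935 to 6.72) were not separated from each other. LY96 stood below TLR2 at 0 h without overlap and overlapped it at 8 h, and TLR6, whose interval overlapped that of TLR4 at 0 h, now lay above it. Before division by length, TLR6 and TLR4 were close at 8 h, at 52.3 and 53.1 CPM, and TLR1 was lower at 34.4 CPM.

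At 24 h, LY96 at 36.5 CPM per kb (24.5 to 52.5) and TLR2 at 24.1 (20.0 to 28.7) again overlapped. TLR1 at 12.1 (8.95 to 16.0), CD180 at 9.41 (7.36 to 11.8) and TLR6 at 8.62 (6.86 to 10.7) formed an overlapping middle group. TLR4 at 5.89 (4.82 to 7.12) overlapped TLR6 but lay below CD180, and it also overlapped CD14 at 3.12 (1.14 to 6.78). Before division by length TLR4 was higher than CD180, at 74.6 CPM against 50.7. It was then also higher than TLR6 at 57.7 CPM and TLR1 at 34.5 CPM. TLR8, at 0.501 (0.103 to 1.46), lay below TLR4.

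For counts over the members, a feature was called higher or lower past a log2 fold change of 1 (log2 CPM with a prior count of 2) if it had at least 10 counts in at least 1 library. Of the 10 members, 6 met this filter, 5 of them with at least 10 counts at 0 h. At 8 h against 0 h, 2 members were higher, LY96 and TLR1, where 4.51% of the 9609 features tested were higher, and 0 were lower, where 6.02% of all were. At 24 h against 0 h, 3 were higher, LY96, CD180 and TLR1, against 6.19% of all features, and 0 were lower, against 5.58%. At 24 h against 8 h, CD180 alone was higher, against 4.03%, and 0 members were lower, against 1.97%. LY96 passed the filter only through the libraries where it was high, so its call and its part in the medians are in part set by the filter. The median log2 fold change of the 6 members, LY96 included, was 0.72, 1.24 and 0.25 in these 3 comparisons, beside -0.01, -0.01 and 0.00 over all features tested. At 8 h against 0 h the other 5 had 0.69 (CD180), 1.60 (TLR1), 0.75 (TLR6), -0.15 (TLR4) and -0.54 (TLR2). At 24 h against 0 h they had 2.06, 1.60, 0.89, 0.33 and -0.45 in the same order. Both comparisons against 0 h share the untreated library, and these shares describe the members and do not test them.

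A second count took the members whose 95% counting interval leaves out no change. It used the same filter, so LY96 again entered only through the treated libraries. At 8 h against 0 h these were LY96, TLR1 and TLR6 on the higher side, where 11.7% of all features lay, and TLR2 on the lower side, where 9.71% lay. At 24 h against 0 h CD180 joined the higher side, making 4 members against 13% of all, and TLR2 was again the 1 lower member, against 12.6%. At 24 h against 8 h, CD180 and TLR4 were higher, against 4.87%, and 0 members were lower, against 5.58%.

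**Figure D3:**
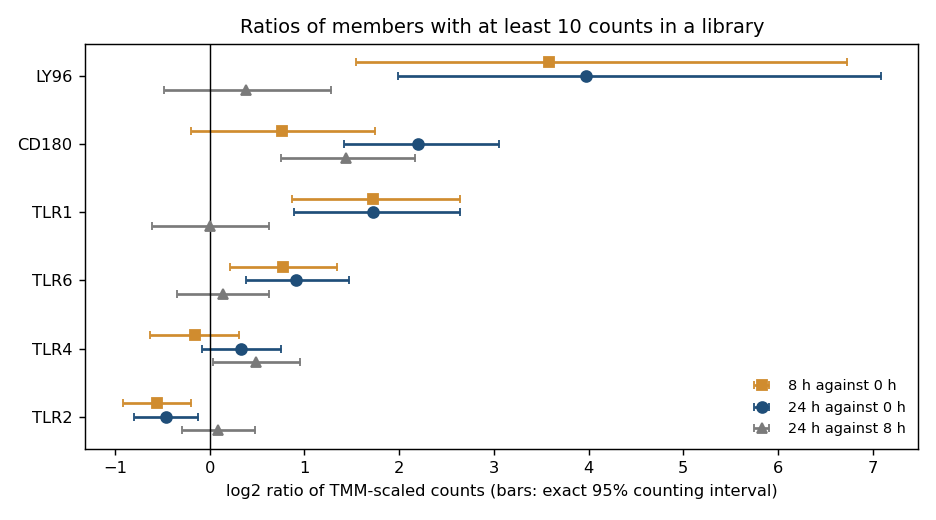
Log2 ratio of TMM-scaled counts (horizontal axis) of the 6 members with at least 10 counts in a library, for 8 h against 0 h (squares), 24 h against 0 h (circles) and 24 h against 8 h (triangles), with exact 95% counting intervals as bars. LY96 and TLR1 lie right of 0 at both times, CD180 moves mainly from 8 h to 24 h with 1.44, and TLR2 lies left of 0 at -0.55 and -0.46.

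The other genes of the pathway were drawn from 5 lists of 63 genes, of which 58 have a row under the accession used, 25 of these rows were at 0 in every library and 22 had at least 10 counts in a library. At 8 h against 0 h, 2 of the 22 were higher past a log2 fold change of 1 and 0 lower, and at 24 h 3 were higher and 0 lower, beside the shares of all features given above (4.51% and 6.19% higher). Some, ICAM1 among them, reached 10 counts only in a treated library. Of the 19 with at least 10 counts at 0 h, 1 was higher at 8 h and 2 at 24 h, and 0 were lower. By the counting interval, 6 of the 22 were higher and 1 lower at each time, beside 11.7% of all features higher and 9.71% lower at 8 h, and 13% and 12.6% at 24 h. Their median log2 fold change was 0.34 at 8 h and 0.25 at 24 h, beside -0.01 at both times over all features.

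Among the other receptors and accessory proteins, 3 of 9 with a row had enough counts. LY86 was described above with CD180. CNPY3, a chaperone that brings Toll-like receptors to the cell surface, had 460, 550 and 612 counts and log2 ratios of 0.52 (0.34 to 0.70) and 0.53 (0.35 to 0.70), beyond counting error at both times. UNC93B1, which carries the endosomal receptors out of the endoplasmic reticulum, had 32, 39 and 36 counts, with log2 ratios of 0.55 (-0.16 to 1.27) and 0.28 (-0.44 to 1.02). Of the receptors outside the members, TLR3 was listed at 0 throughout and TLR10 had 2, 0 and 2 counts. TLR9 had 1, 0 and 0, and exons of another gene cover 99.7% of its exon bases. TLR7, the close relative of TLR8, had 1, 6 and 8 counts, with log2 ratios against 0 h of 2.85 (-0.20 to 8.37) at 8 h and 3.11 (0.21 to 8.58) at 24 h.

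Among the adaptors, kinases and ubiquitin enzymes, which carry the signal from the receptor towards NF-kB, 13 of 21 with a row had enough counts, and 0 of them passed a log2 fold change of 1 at either time. MAP3K7, the kinase TAK1, had 270, 250 and 286 counts with log2 ratios of 0.15 (-0.10 to 0.41) and 0.20 (-0.05 to 0.44). TRAF6, the ubiquitin ligase downstream of the IRAK kinases, had 167, 140 and 136 counts with log2 ratios of 0.01 (-0.33 to 0.34) and -0.18 (-0.52 to 0.15). CHUK, the kinase IKK-alpha, had 166, 131 and 116 counts, and its log2 ratio at 24 h of -0.40 (-0.76 to -0.05) was the only one of the list below 0 by its interval. TIRAP, the adaptor that brings MYD88 to TLR2 and TLR4, is named because its interval was the only one above 0 in this list, and it was chosen after its values were seen. It had 97, 120 and 156 counts, with log2 ratios of 0.57 (0.17 to 0.97) and 0.80 (0.42 to 1.18), and 28.4% of its exon bases lie under other genes' exons.

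Among the transcription factors and IkB proteins, 8 of 11 were listed at 0 and 2 had enough counts. IRF5, a factor that acts downstream of MYD88 in myeloid cells, had 366, 383 and 415 counts with log2 ratios of 0.33 (0.12 to 0.54) and 0.29 (0.09 to 0.50). REL, an NF-kB subunit, had 202, 198 and 186 counts with log2 ratios of 0.23 (-0.06 to 0.52) and -0.01 (-0.30 to 0.29). Exons of another gene cover 51.3% of the REL exon bases, so its count is uncertain. Neither passed a log2 fold change of 1.

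Among the negative regulators, 3 of 6 had enough counts. IRAK3, the inhibitory IRAK-M of monocytes, had 1344, 1029 and 1195 counts with log2 ratios of -0.12 (-0.24 to -0.0043) and -0.06 (-0.17 to 0.06), and 3.8% of its exon bases lie under other genes' exons. CYLD, a deubiquitinase that limits NF-kB signalling, had 35, 59 and 68 counts. Its log2 ratio was 1.02 (0.39 to 1.66) at 8 h and 1.07 (0.46 to 1.70) at 24 h, and with the prior count of 2 only the 24 h value passed 1. TNFAIP3, the ubiquitin-editing enzyme A20, had 6, 7 and 12 counts, with log2 ratios of 0.49 (-1.31 to 2.33) and 1.11 (-0.41 to 2.81).

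Among the inducible target genes, 7 of 11 with a row were listed at 0 and only ICAM1, an adhesion molecule induced by NF-kB, had enough counts. It had 2, 13 and 14 counts and rose at both times, with log2 ratios of 2.96 (0.82 to 6.15) and 2.92 (0.80 to 6.10). As for LY96, it passed the filter only through the treated libraries, and 29.5% of its exon bases lie under other genes' exons.

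**Figure D4:**
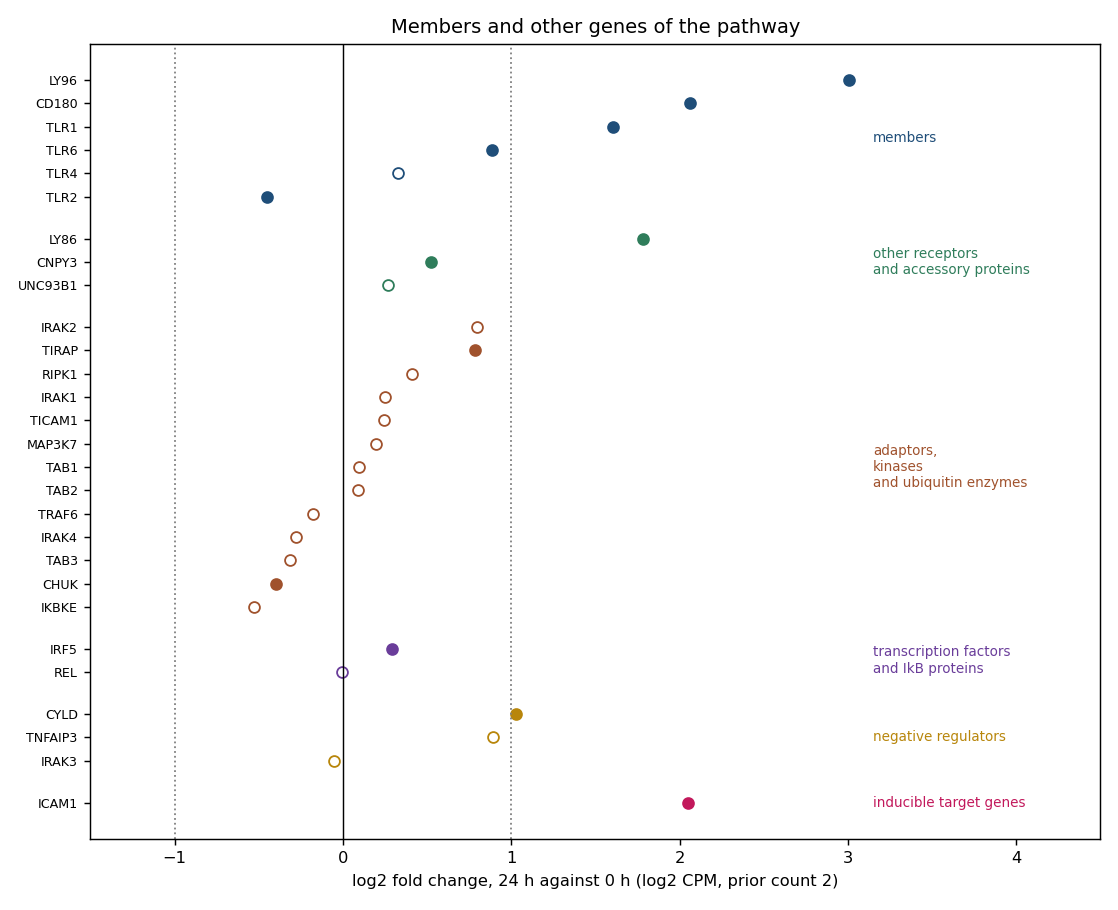
Log2 fold change at 24 h against 0 h (horizontal axis, log2 CPM with a prior count of 2) of the 6 members and 22 other pathway genes with at least 10 counts in a library, grouped by list. Filled circles have a 95% counting interval of the ratio that leaves out no change, open circles do not, and dotted lines mark a log2 fold change of 1 in either direction. Of these genes, LY96, CD180, TLR1, LY86, CYLD and ICAM1 lie past the upper line and no gene lies past the lower line.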

How the data were processed

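RNA-seq reads of THP-1 cells, 1 library per time point, were mapped to hg38 by the authors with Seq2science, and the submitters' processing notes name fastp and STAR. The authors deposited raw read counts, whole numbers that were not normalized. Which tool and annotation gave the counts, and how strand and shared reads were treated, is not given in the sources used here. Of the count columns, 0 stayed without a time point. Features are named by 73321 protein accessions and 140222 Ensembl transcripts.

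The members, lists and tests were chosen with earlier results of these data known. Library sizes were scaled with TMM (edgeR 4.0.16, R 4.3.3). Log2 fold changes used a prior count of 2 and were taken over features that reached 10 counts in a library. Ratios used no prior count. Their exact 95% intervals (Clopper-Pearson) came from the binomial share of one count in the sum of both. Intervals of a level are exact Poisson intervals, and those of a ratio within a library are exact binomial intervals. The change of such a ratio between libraries is a conditional maximum likelihood odds ratio with its exact conditional interval. It can therefore differ slightly from the quotient of the printed ratios. Python 3.11.15, numpy 2.4.6, pandas 2.3.3, scipy 1.17.1 and Biopython 1.88 were used. The steps were also run on counts simulated with Poisson counting error alone. That run checks the calculation only and cannot test other variation between libraries. Positions and transcripts came from GENCODE 44 and promoters from RefSeq. All members were named, and from each list those past the fold threshold (at most 6), the 3 with the highest counts, and TLR3, TLR7, TLR9 and TLR10. Marker genes and the exceptions named in the text stand outside this rule. Alternatives were DESeq2 1.42.0 size factors, total counts, upper-quartile scaling, prior counts of 0.5 and 5, no filter or at least 50 counts, thresholds of 0.58 and 2, 99% intervals and the addition of the genes' transcript features. HSP90B1, UBE2N, TNF, IL6, IL10 and CD2 were not analysed here.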

Additional observations from a re-analysis of the deposited data

Results flagged for a closer look

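Besides the rows named by accession, 17 features named by Ensembl transcripts belong to member genes in GENCODE 44, and 7 of them held at least 1 count. One TLR1 transcript of 652 bp in 2 exons without a defined coding sequence (ENST00000510552) held 1 count at 0 h, 7 at 8 h and 8 at 24 h. It is shown because the later counts in data outside the main measurement exceeded the limit of 3 counts and the untreated level. Its log2 ratio against 0 h was 3.07 at 8 h (exact 95% counting interval 0.11 to 8.56) and 3.11 at 24 h (0.21 to 8.58), the same direction as the TLR1 accession feature. Counted together with that feature, TLR1 had log2 ratios of 1.77 and 1.80.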

How the results depend on the processing

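No leave-one-out and no paired analysis was possible because each time point has 1 library. The number of members higher past a log2 fold change of 1 depended on how low counts were treated. Without a filter it was 4 at 8 h and 5 at 24 h against 0 h, since CD14 and TLR8 then entered, and with at least 50 counts in a library, which leaves out LY96 and TLR1, it was 0 and 1. A threshold of 0.58 gave 4 at 8 h, and a threshold of 2 gave 1 there and 0 for the step from 8 h to 24 h. By the counting interval, at least 50 counts left 1 higher member at 8 h and 2 at 24 h against 0 h, and a 99% interval left 1 at 24 h against 8 h. DESeq2 size factors, total counts, upper-quartile scaling and the other prior counts kept each of these numbers within 1.5 times. For the 39 log2 ratios and ratio changes, all 90 alternative values stayed within the main interval and 0 reversed. This check was weak, because the intervals are wide beside the shifts that scaling makes. Some alternatives, such as those of CD180 per LY86, equal the main value because no transcript counts were added. At this depth, differences of CD14, TLR8, TLR5 and MYD88 smaller than a few counts were not detectable.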

Other observations

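A TLR2 transcript without a defined coding sequence (ENST00000645889, 735 bp in 3 exons) held 10 counts in untreated cells, then 5 and 6 after 8 h and 24 h. Its log2 ratios against 0 h were -0.74 (exact 95% counting interval -2.64 to 0.95) and -0.62 (-2.37 to 0.98), within counting error. A TLR5 transcript of the same kind (ENST00000646044, 3290 bp in 6 exons) held 0, 2 and 3 counts, at or under the limit, while the TLR5 accession feature was listed at 0.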
